A study of Mus musculus with 8 samples.

Results

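The genes described here are proteins that the choroid plexus, the secretory tissue of the brain ventricles, releases, carries on its surface or uses as enzymes. A set of 10 named genes was selected on values of these hippocampus arrays that were lower in transgenic than in littermate samples, so that the genotype differences below are a description without a test. The probe annotation named a probe set of its own for 8 of the 10 genes, out of 18193 genes on the array, and the other 2 were not analysed here. The 8 genes are Ecrg4, Sostdc1, F5, Folr1, Kl, Rdh5, Ace and Otx2, with 14 probe sets in all. The last of these, Otx2, encodes a transcription factor and so is neither a secreted protein, a receptor nor an enzyme in the usual sense.

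Total RNA from the hippocampus of female mice was hybridised to Affymetrix GeneChip mouse genome arrays. MT mice were of the Tg6799 line, a model of Alzheimer disease whose transgenes are driven in neurons by Thy1 promoter sequence, and LM mice were their littermates without a stated further treatment. Littermates and transgenic mice at 4 months are called LM4m and MT4m, those at 8 months LM8m and MT8m, and each of these groups has 2 of the 8 arrays. Whether 2 arrays of 1 group stand for separate animals or for pooled RNA is not stated, and the p-values therefore measure only a spread between samples that may be technical.

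The choroid plexus is a sheet of epithelial cells over a vascular core that makes cerebrospinal fluid and forms the barrier between blood and that fluid. Its cells secrete carrier proteins and growth factor antagonists into the ventricle, and take up folate from the blood by means of the folate receptor. The tissue hangs in the ventricle that lies along the hippocampus. Transthyretin, the carrier of thyroxine in that fluid, is its most abundant secreted product. In bulk tissue, fewer cells of a type and less RNA per cell cannot be told apart.

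Since Otx2 is a homeodomain factor of the choroid plexus epithelium and its protein binds the core TAATCC, the start regions of the members are shown with this core in capitals. RefSeq start windows on GRCm38.p6, from 250 bases before to 50 after an annotated start, were held for 6 of the 8 members, with 10 windows in all. Sostdc1 and Folr1 were the other members. The core, as TAATCC or as GGATTA on the other strand, lay in 2 of the 10 windows, 1 of Ace and 1 of Otx2 itself, and in 7.06% of all 32851 windows searched. The TATA letters TATAAA, or TTTATA on the other strand, lay in 2 of the 10 windows and in 13.6% of all. The search left out the windows of 1 chromosome, so both shares are of the windows that remained. The following windows are those with the core and, for comparison, those of Ecrg4 and Kl, the secreted peptide with the largest genotype difference and the co-receptor, in which the core was not matched.
Ace, chr11:105967698-105967997, plus strand: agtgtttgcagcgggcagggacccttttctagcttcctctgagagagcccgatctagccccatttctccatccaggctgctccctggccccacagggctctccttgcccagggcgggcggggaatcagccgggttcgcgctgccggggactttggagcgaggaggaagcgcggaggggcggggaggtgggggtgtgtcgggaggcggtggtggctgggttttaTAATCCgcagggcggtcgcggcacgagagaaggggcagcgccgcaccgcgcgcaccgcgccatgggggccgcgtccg
Otx2, chr14:48665060-48665359, minus strand: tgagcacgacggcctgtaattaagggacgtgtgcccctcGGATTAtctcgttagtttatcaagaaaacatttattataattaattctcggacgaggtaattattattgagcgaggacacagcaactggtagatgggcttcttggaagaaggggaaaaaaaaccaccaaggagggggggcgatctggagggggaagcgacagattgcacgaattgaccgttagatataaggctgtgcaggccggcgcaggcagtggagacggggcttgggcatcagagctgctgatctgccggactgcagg
Ecrg4, chr1:43730352-43730651, plus strand: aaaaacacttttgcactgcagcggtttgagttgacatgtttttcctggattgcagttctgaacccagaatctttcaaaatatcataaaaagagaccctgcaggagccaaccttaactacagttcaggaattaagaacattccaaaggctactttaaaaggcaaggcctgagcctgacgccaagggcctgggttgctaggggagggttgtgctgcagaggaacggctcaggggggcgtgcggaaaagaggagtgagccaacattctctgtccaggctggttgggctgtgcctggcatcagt
Kl, chr5:150952357-150952656, plus strand: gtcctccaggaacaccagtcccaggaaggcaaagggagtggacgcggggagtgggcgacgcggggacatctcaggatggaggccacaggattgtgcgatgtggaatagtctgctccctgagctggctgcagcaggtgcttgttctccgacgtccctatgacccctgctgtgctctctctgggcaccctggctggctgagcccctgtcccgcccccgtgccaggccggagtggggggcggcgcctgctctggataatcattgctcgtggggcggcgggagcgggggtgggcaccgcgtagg
In the Ace window the core began 27 bases before the start site and overlapped the TATA letters by 2 bases. In the Otx2 window it began 211 bases before the start. A match of these letters is a description and not a site, and nothing is drawn from windows without one.

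The labels were checked before the results. The level of Thy1, whose promoter sequence drives the transgenes, lay between 9.53 and 9.96 log2 units on the LM arrays and between 11.73 and 11.82 on 3 MT arrays, but at 9.90 on the library labelled MT8m replicate 1. Cst7, a cystatin of plaque-associated microglia, went the same way, at 2.06 to 2.18 on the LM arrays, 5.92 to 8.03 on 3 MT arrays and 1.75 on the library labelled MT8m replicate 1. That library therefore went against its label for these genes, and results are given with and without it. For Ttr, the transthyretin gene, it lay with its label, at 10.69 against 10.66 to 10.97 on the other MT arrays and 12.43 to 12.83 on the LM arrays. The members also went with its label and not with Thy1 and Cst7. On that library 7 of the 8 members lay inside the range of the other MT arrays, and Folr1, at 2.19, lay below it. The markers of hippocampal neurons were measured on all 8 arrays, with a mean level of their 8 genes from 5.67 to 6.32. The published supplementary tables give the opposite genotype to the same array values, so that a difference described here as lower in MT stands there as higher, and the GEO labels are followed here.

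On the arrays as labelled, all 8 members were lower in MT than in LM at both ages. The averaged difference (MT minus LM, log2 units) ran from -0.57 for Ace to -3.28 for Ecrg4, with a median of -1.92, while the median over all genes was -0.012. For all 8 members the 4 MT arrays lay below the 4 LM arrays without overlap, which held for 440 of 18193 genes, or 2.42%, and follows from the way the members were selected. Without the library labelled MT8m replicate 1 the median was -2.04, and without LM8m replicate 2, the array on which all 8 members were highest, it was -1.62. For Sostdc1, F5, Folr1 and Otx2, 4 of the 8 members, at least 1 MT array lay below the highest array median of 2.51. The order of such low values carries little, and the folds, age differences and interactions that rest on them may be compressed, which was not measured.

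**Figure D1:**
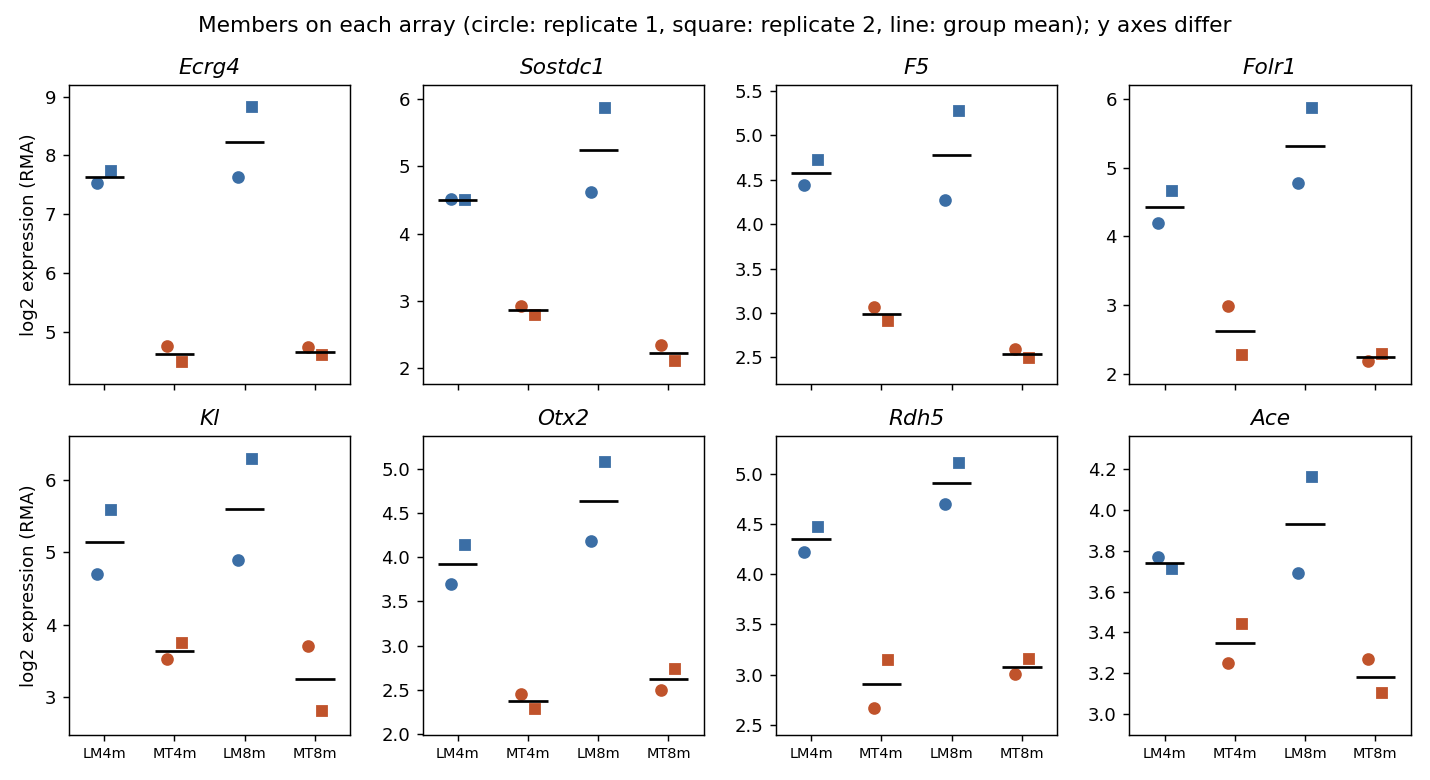
Expression of the 8 members in log2 units (RMA) on each array, by group (n = 2). Replicate 1 is a circle, replicate 2 is a square, and the horizontal line marks the group mean. The MT arrays lie below the LM arrays in each panel, and the square of LM8m is the highest point in all 8 panels.

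The members Ecrg4, Sostdc1 and F5 encode secreted proteins. Ecrg4 encodes augurin, the precursor of a small secreted peptide, and had the widest separation of the members. Its level (1460049_s_at) was 7.53 and 7.74 in LM4m, 4.76 and 4.49 in MT4m, 7.64 and 8.83 in LM8m, and 4.74 and 4.61 in MT8m. The lowest LM array was 2.78 log2 units above the highest MT array. The averaged difference was -3.28 (SE 0.23), a level 9.75-fold lower in MT. A second probe set, 1423261_at, had 6.55 and 7.18 in LM4m, 4.51 and 4.20 in MT4m, 6.72 and 8.14 in LM8m, and 4.26 and 4.03 in MT8m. The remaining one, 1440780_x_at, whose suffix marks probes that may also bind other transcripts, spanned 3.69 to 4.47 on the LM arrays and 2.66 to 3.16 on the MT arrays. The 3 probe sets kept the same order of genotypes, with differences of -3.28, -2.90 (SE 0.29) and -1.07 (SE 0.17).

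Sostdc1 encodes a secreted antagonist of bone morphogenetic proteins that also acts on Wnt signalling. Its level (1449340_at) was 4.51 and 4.50 in LM4m, 2.93 and 2.80 in MT4m, 4.62 and 5.87 in LM8m, and 2.35 and 2.11 in MT8m. No LM array was lower than the MT arrays, and the MT8m values were under the lowest array median of 2.44. The averaged difference was -2.33 (SE 0.23), or 5.01-fold lower in MT. The other probe set, 1460250_at, read 3.25 and 3.07 in LM4m, 1.93 and 2.30 in MT4m, 3.99 and 4.66 in LM8m, and 2.00 and 1.86 in MT8m, a difference of -1.72 (SE 0.16).

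F5 encodes coagulation factor V, the cofactor with which activated factor X cleaves prothrombin. Its level (1449269_at) was 4.44 and 4.72 in LM4m, 3.07 and 2.91 in MT4m, 4.27 and 5.28 in LM8m, and 2.59 and 2.49 in MT8m. The difference was -1.91 (SE 0.20), 3.77-fold lower in MT. On 1418907_at the LM arrays ran from 3.31 to 5.27, the widest span of any probe set of the members, and the MT arrays from 1.96 to 2.18, with a difference of -1.88 (SE 0.31).

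The receptors were Folr1 and Kl. Folr1 encodes folate receptor alpha, through which the choroid plexus moves folate into the cerebrospinal fluid. Its only probe set, 1450995_at, read 4.20 and 4.66 in LM4m, 2.99 and 2.27 in MT4m, 4.78 and 5.87 in LM8m, and 2.19 and 2.29 in MT8m. The difference was -2.44 (SE 0.25), a level 5.42-fold lower in MT, and 3 of the 4 MT values were under the lowest array median.

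Kl encodes klotho, the co-receptor for fibroblast growth factor 23, which is also shed as a soluble protein. The level on 1423400_at was 4.70 and 5.58 in LM4m, 3.52 and 3.74 in MT4m, 4.89 and 6.28 in LM8m, and 3.71 and 2.80 in MT8m. Among the members it had the largest standard error, with a difference of -1.92 (SE 0.34), 3.79-fold lower in MT, and replicates 0.87 apart in LM4m and 1.39 apart in LM8m. Its second probe set, 1451892_at, did not share this pattern. It lay at 1.47 to 1.86 on the LM arrays and 1.48 to 1.76 on the MT arrays, below the median of every array, with a difference of -0.03 (SE 0.09). On 1423400_at the difference was -2.15 with the library labelled MT8m replicate 1 left out.

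The enzymes were Rdh5 and Ace. Rdh5 encodes a retinol dehydrogenase best known from the retinal pigment epithelium, where it takes part in the visual cycle. Its probe set, 1418808_at, read 4.22 and 4.47 in LM4m, 2.67 and 3.15 in MT4m, 4.70 and 5.11 in LM8m, and 3.01 and 3.16 in MT8m. The difference was -1.63 (SE 0.14), 3.10-fold lower in MT, and the LM8m arrays were above the LM4m arrays. A further probe set that the annotation gives to Rdh5 and a neighbouring gene together was not used.

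Ace encodes angiotensin-converting enzyme, which makes angiotensin II. Its separation was the narrowest of the 8. The level on 1427034_at was 3.77 and 3.71 in LM4m, 3.25 and 3.44 in MT4m, 3.69 and 4.16 in LM8m, and 3.27 and 3.10 in MT8m, so that the lowest LM array was 0.25 log2 units above the highest MT array. The difference was -0.57 (SE 0.12), 1.48-fold lower in MT. On 1451911_a_at the groups overlapped, with 2.01 to 2.27 on the LM arrays and 1.99 to 2.12 on the MT arrays, and the difference was -0.11 (SE 0.10). Ace and Kl were thus the members for which a second probe set did not separate the genotypes, and 12 of the 14 probe sets did.

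Otx2 encodes the homeodomain factor needed for the choroid plexus to form, and its protein is also released into the cerebrospinal fluid. The level on 1425926_a_at was 3.70 and 4.14 in LM4m, 2.45 and 2.28 in MT4m, 4.18 and 5.08 in LM8m, and 2.50 and 2.74 in MT8m. The MT values lay around the array medians, so that their order by age is not read. The difference was -1.78 (SE 0.20), or 3.44-fold lower in MT.

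The genotype difference was further from 0 at 8 than at 4 months for all 8 members. The median was -1.57 at 4 months and -2.28 at 8 months. Sostdc1 went from -1.64 to -3.01 (SE 0.33 at each age), Folr1 from -1.80 to -3.08 (SE 0.36) and Kl from -1.51 to -2.33 (SE 0.47). In contrast, Rdh5 went from -1.44 to -1.82 (SE 0.20) and Ace from -0.39 to -0.74 (SE 0.17). The difference of these differences, the interaction of genotype and age, is a contrast apart from the averaged genotype difference and was tested. The members were chosen with earlier results of these data known, so the independence of this test from their selection is not established. The same holds for the tests of age.

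**Figure D2:**
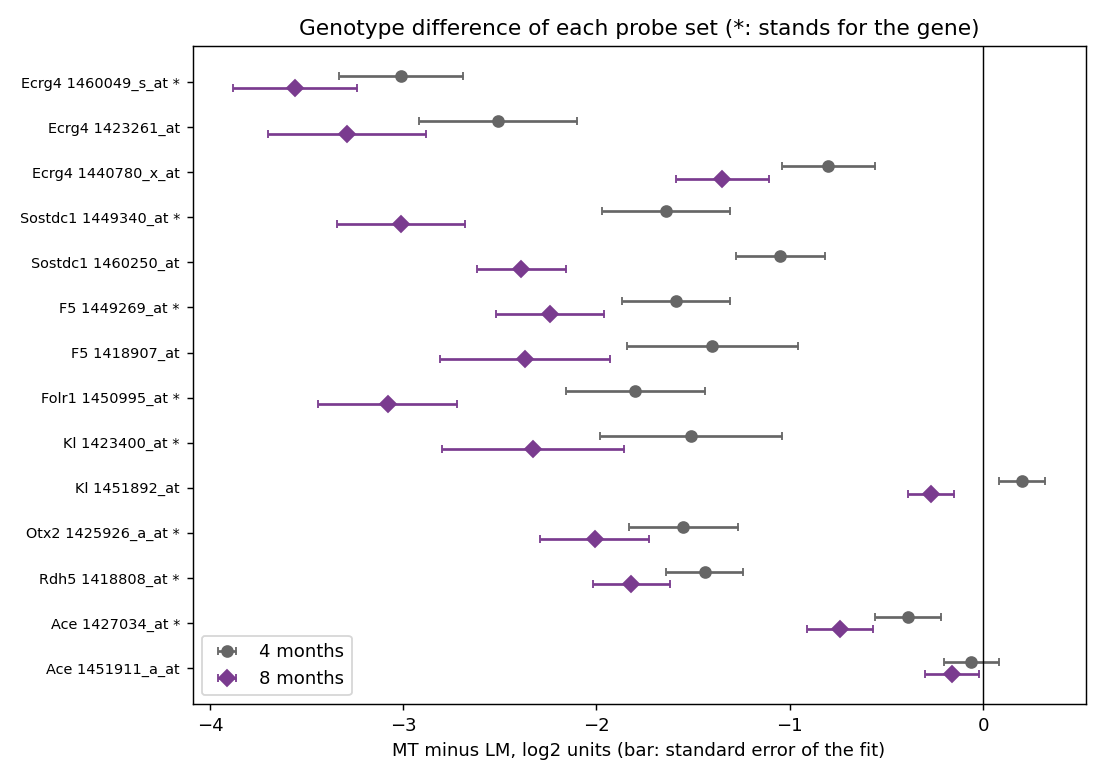
Genotype difference (MT minus LM, log2 units, bars are the standard error of the fit) of each probe set of the members at 4 months (circles) and 8 months (diamonds), with a star on the probe set that stands for the gene. The diamonds lie left of the circles for all 14 probe sets, and the second sets of Kl and Ace stay near 0.

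None of the 8 members passed the interaction test (limma, adjusted p of 1.0 for each), and over all 45037 probe sets 0 passed, or 0%, with 1162 at an unadjusted p under 0.05. The interaction was -1.37 (SE 0.47) for Sostdc1 and -1.29 (SE 0.50) for Folr1. These were the 2 members with an unadjusted limma p under 0.05 (0.0181 and 0.0323) on the probe set that stands for the gene. For the other 6 it lay between -0.35 and -0.82. All 8 values were below 0, against 45.0% of all genes, with a median of -0.60 over the members. This median rested on the LM8m pair. It was -0.14 without LM8m replicate 2 and -1.15 without LM8m replicate 1, and with the former left out Ecrg4 turned to 0.05. Without the library labelled MT8m replicate 1 it was -0.65. The second probe sets of Sostdc1 (-1.35, SE 0.32) and Kl (-0.47, SE 0.18) also had an unadjusted limma p under 0.05 (0.00265 and 0.0259). Neither passed after adjustment, and without LM8m replicate 2 they were at -1.01 and -0.55.

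Age alone was tested in the same fit. Averaged over the genotypes, the difference between 8 and 4 months passed for 0 of the 8 members and for 0% of probe sets (limma, 2920 at an unadjusted p under 0.05). The members ran from -0.12 for F5 to 0.48 (SE 0.20) for Otx2, with a median of 0.15, and the lowest adjusted limma p was 0.726, for Rdh5 at 0.37 (SE 0.14). The second probe set of Sostdc1 had an age difference of 0.49 (SE 0.16, limma adjusted p = 0.668), while the first had 0.06 (SE 0.23, limma adjusted p = 0.983). Leaving out LM8m replicate 2 moved the median to -0.06.

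Within LM, all 8 members were higher at 8 than at 4 months as measured, from 0.19 (SE 0.17) for Ace to 0.90 (SE 0.36) for Folr1, with a median of 0.58. The test was passed by 0 members and 0% of probe sets (limma, 1554 at an unadjusted p under 0.05), and each member had an adjusted p of 1.0. Without LM8m replicate 2 the median was 0.06 and 4 of the 8 were below 0. Kl was at -0.25, F5 at -0.30 and Rdh5 at 0.36 on the arrays that remained. On the probe sets that stand for the genes, Rdh5, Sostdc1, Folr1 and Otx2 had their lower LM8m array above both LM4m arrays. Each was above by less than the gap between the LM8m arrays. Both LM8m arrays were thus above both LM4m arrays for 4 of the 8 members and for 2237 of 18193 genes, or 12.3%. The second probe set of Sostdc1 had 3.99 and 4.66 in LM8m against 3.25 and 3.07 in LM4m. Its age difference in LM, 1.16 (SE 0.23), was the largest of any probe set of the members. It had an unadjusted limma p of 0.000749 and did not pass after adjustment. Without LM8m replicate 2 this difference was 0.83.

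Within MT, 5 of the 8 members were lower at 8 months as measured, and 0 members and 0% of probe sets passed (limma, 2567 at an unadjusted p under 0.05). Sostdc1, with MT8m values under the array medians, was at -0.63 (SE 0.33, limma adjusted p = 0.886) and F5 at -0.45 (SE 0.28, limma adjusted p = 0.897). On the other side were Otx2 at 0.25 (SE 0.28), Rdh5 at 0.18 (SE 0.20) and Ecrg4 at 0.05 (SE 0.32). Without the library labelled MT8m replicate 1, Kl moved from -0.38 (SE 0.47) to -0.83 and the median from -0.27 to -0.30. With 2 arrays a group, age differences of the size of these standard errors were not detectable.

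**Figure D3:**
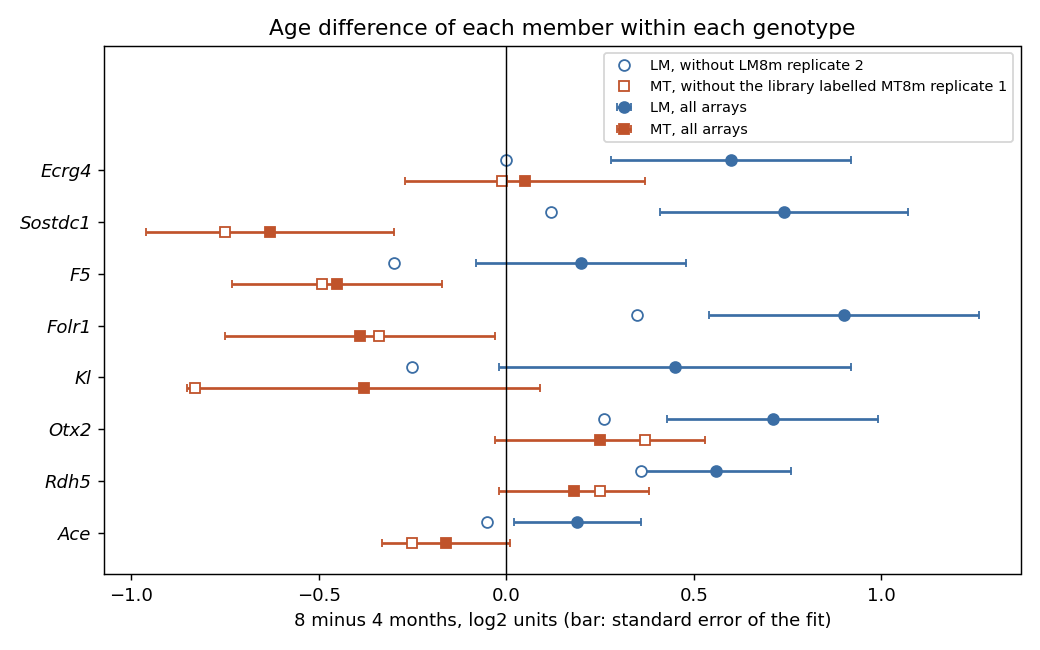
Age difference (8 minus 4 months, log2 units, bars are the standard error of the fit) of each member in LM (circles) and MT (squares), with open symbols for the fit without LM8m replicate 2 or without the library labelled MT8m replicate 1. The filled circles lie right of 0 for all 8 members, and the open circles lie to the left of the filled ones for each.

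The members varied together within LM8m, a difference other than the genotype contrast on which they were selected. They were chosen with values of these arrays known and as genes of the same tissue, so the counts here are a description. LM8m replicate 2 was above replicate 1 for all 8, by 0.40 for Rdh5 to 1.39 for Kl, with a median of 1.05, against a median over all genes of 0.016. It was more than 0.5 log2 units above for 6 of the 8 members and for 822 of 18193 genes, or 4.52%. In LM4m, replicate 2 was more than 0.5 above replicate 1 for 1 member, Kl, and for 4.55% of genes, with a median of 0.26 over the members. Within MT4m and MT8m the replicates differed without a shared direction, with replicate 2 higher for 3 of the 8 members in each, and medians of -0.14 and -0.11. The largest differences there were -0.72 for Folr1 in MT4m and -0.91 for Kl in MT8m.

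Markers of tissues next to the hippocampus stood with the members on this array. From LM8m replicate 1 to replicate 2, the mean of 27 other choroid plexus genes was 0.71 higher, that of 9 ependymal genes 0.92 and that of 9 meningeal genes 1.27, while 11 oligodendrocyte genes differed by 0.03 and 8 genes of hippocampal neurons by -0.02. Their part in the members' values was not tested. The meningeal list also stood 1.02 above its mean on LM4m replicate 1, where the members stood 0.57 above theirs, less than on LM4m replicate 2 at 0.87.

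**Figure D4:**
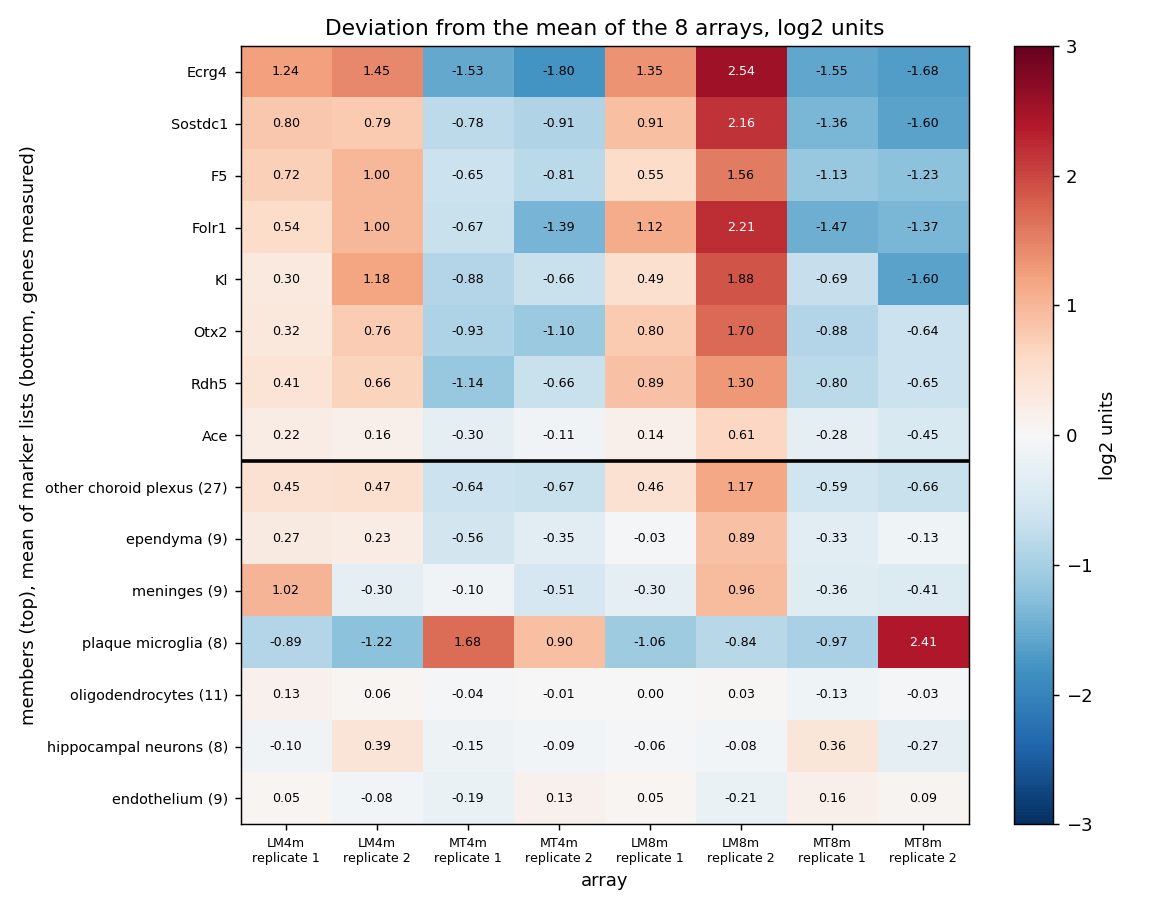
Deviation of each array from the mean of the 8 arrays, in log2 units (colour and printed value), for the 8 members (above the line) and for the mean of each marker list (below it, with the number of genes measured). The members and the other choroid plexus genes are above 0 on the 4 LM arrays and below 0 on the 4 MT arrays, with their highest value on LM8m replicate 2, and the plaque microglia list is at -0.97 on the library labelled MT8m replicate 1.

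Between the genotypes, 8 of the 27 other choroid plexus genes passed as lower in MT and 0 as higher (limma, averaged over ages), against 27 probe sets, or 0.06% of those tested, lower and 0% higher over the array. In the fit with 1 probe set for each of the 18193 genes, 28 passed as lower and 0 as higher over the array. The 27 choroid plexus genes were listed with their values in these arrays known, so their count is not independent evidence. The genes that passed include Ttr at -1.90 (SE 0.10, limma adjusted p = 0.00151), the potassium channel Kcnj13 at -3.41 (SE 0.30, limma adjusted p = 0.00997), the chloride channel protein Clic6 at -2.64 (SE 0.22, limma adjusted p = 0.00848) and the tight junction protein Cldn2 at -2.04 (SE 0.22, limma adjusted p = 0.0214). The LM values of Ttr reach the top of the measured range, and saturation, which would shrink its difference, was not analysed here. Calml4, Igfbp2, Cox8b and the water channel Aqp1 were the other 4. The potassium channel subunit Kcne2, at -2.56 (SE 0.37), did not pass (limma adjusted p = 0.0939). The list had a median of -1.14, and its summed level per array, given as a mean over the genes, was 4.61 to 5.33 on the LM arrays and 3.50 to 3.58 on the MT arrays.

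For the averaged genotype difference, 2595 of all 45037 probe sets had an unadjusted limma p under 0.05. Of the ependymal markers 0 of 9 passed (limma, 7 at an unadjusted p under 0.05) with a median of -0.64. Their mean level was 3.99 to 4.91 on the LM arrays and 3.47 to 3.89 on the MT arrays. Dynlrb2 was at -1.06 (SE 0.21) and Mia at -1.09 (SE 0.22). Meningeal genes passed in 0 of 9 cases (limma, 3 at an unadjusted p under 0.05), with a median of -0.60, 3.58 to 4.90 on the LM arrays and 3.38 to 3.78 on the MT arrays. Ogn was at -1.66 (SE 0.68) and Col1a2 at -1.26 (SE 0.47), which overlapped between the genotypes. The part of either tissue in the members' differences was not tested. Plaque microglia genes passed in 0 of 8 cases (limma, 8 at an unadjusted p under 0.05) with a median of 1.93. Of these, Cst7 was at 3.48 (SE 1.09), and at 5.05 without the library labelled MT8m replicate 1. The latter value is selected on the outcome, since that library was singled out by this gene. Oligodendrocyte, endothelial and hippocampal neuron lists had medians of -0.11, 0.15 and -0.11 with 0 passing.

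The partners of the members in their pathways were examined in 8 lists, of which 75 of 82 genes were measured. None of the 75 passed in either direction (limma), and 10 had an unadjusted limma p under 0.05, against 2595 of all 45037 probe sets. All MT arrays lay below all LM arrays for 1 of the 75, against 2.42% of all genes. The medians of the lists lay between -0.17 and 0.04. Leaving out the library labelled MT8m replicate 1 or LM8m replicate 2 leaves 1 array in that group, so that no count of passing partners is read from these fits.

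Among 13 genes of BMP and Wnt signalling (median -0.06, 4 at an unadjusted limma p under 0.05), which Sostdc1 acts on, the ligands Bmp7, Bmp6 and Bmp4 had the largest differences, at -0.50 (SE 0.21), -0.45 (SE 0.19) and -0.44 (SE 0.19). The LM and MT values of each of these ligands overlapped, and those of Bmp4 in MT, 1.84 to 2.06, were under the lowest array median. Of 3 genes for the receptor complex of bacterial lipid, with which augurin has been linked, Cd14 was at 0.88 (SE 0.52). It was at 1.62 without the library labelled MT8m replicate 1, where its level was 2.50. Since Thy1 and Cst7 had singled out that library, the value without it is not independent evidence. On all arrays, Tlr4 and Ly96 were at 0.04 and 0.02. The 15 coagulation genes around F5 had a median of 0.04, with Pros1, the gene of the anticoagulant protein S, at 0.71 (SE 0.35), the thrombomodulin gene Thbd at -0.66 (SE 0.40) and tissue factor F3 at 0.23 (SE 0.24).

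For folate, 7 genes besides Folr1 had a median of -0.17, and the reduced folate carrier Slc19a1 at -0.32 (SE 0.12), the mitochondrial enzyme Shmt2 at -0.31 (SE 0.18) and the proton-coupled folate transporter Slc46a1 at -0.20 (SE 0.14) were furthest from 0. The 8 klotho and FGF genes had a median of -0.03, the receptors Fgfr1 and Fgfr2 at -0.14 (SE 0.13) and -0.13 (SE 0.12), and the hormone Fgf23 at 0.09 (SE 0.09). Its 1.47 to 1.73 on the 8 arrays was below every array median.

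The 14 retinoid genes beside Rdh5 had a median of -0.12. The largest differences were those of Aldh1a2, which makes retinoic acid, at -0.82 (SE 0.39), the plasma retinol carrier Rbp4 at -0.68 (SE 0.18) and Aldh1a1 at -0.66 (SE 0.28). On these arrays Aldh1a2 ran from 1.74 to 3.91 in LM and from 1.76 to 2.25 in MT, an overlap. The 9 angiotensin genes around Ace had a median of -0.04, with the receptors Mas1 at 0.29 (SE 0.11) and Agtr2 at 0.20 (SE 0.11) and the peptidase Enpep at -0.24 (SE 0.14). Of 6 other homeodomain factors listed with Otx2 (median -0.02), the related Crx was at -0.25 (SE 0.10), Gbx2 at 0.20 (SE 0.11) and Msx2 at -0.09 (SE 0.09), all below the array medians.

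The 8 further genes most like the members, by Pearson r over the 8 arrays with the mean of the members' centred values, were Kcnj13 (0.992), Clic6 (0.991), Cldn2 (0.988), Col8a2 (0.988), Calml4 (0.986), Wdr86 (0.986), Kcne2 (0.984) and Vat1l (0.981). The 8 arrays fall into an LM and an MT set, so that any gene that separates them gives a high r, and the values are a description. Of these 8 genes, 5 were on the choroid plexus list. The others were Col8a2, a chain of type VIII collagen, at -1.40, Vat1l at -1.07 and Wdr86 at -0.68.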

How the data were processed

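Hippocampal RNA was hybridised to 8 one-colour Affymetrix arrays, 2 in each of 4 groups. The log2 values that the authors deposited came from RMA in affy, and its version was not given in the sources used here. They cover 45101 probe sets, 64 of them controls. Values ran from 0.979 to 12.8 with array medians of 2.44 to 2.51, so the offset of the scale is unknown and low values may be compressed. Scanner files, detection calls and saturation were not analysed here. Correlations between arrays were 0.985 to 0.993, and precision is limited by the number of arrays.

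The 45037 other probe sets were tested. The annotation gave 1 symbol for 34945, several for 932 and none for 9160, and 34741 symbols were matched by Entrez identifier to RefSeq names (GRCm38.p6). The probe set with the highest mean stood for each of 18193 genes. A model of the 4 group means with 1 shared spread was fitted in R 4.3.3 by lmFit and eBayes of limma 3.58.1. Two-sided p-values were adjusted over all of these probe sets (Benjamini-Hochberg), with a threshold of 0.05. The fit was run on simulated data drawn independently for each probe set, with known changes added between the ages. These data held no shift shared by the genes of an array and no library against its label. Alternatives left out dim probe sets, normalized again by cyclic loess, kept only 1 probe set for a gene, set a trended and robust prior, compared groups alone, added a replicate block, averaged the probe sets of a gene, or left out each array.

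The members and lists were chosen with earlier results of these data known. Named genes were all analysed members, up to 3 genes per list with the largest averaged genotype difference plus those that passed, the 8 genes most like the members, and Thy1, Cst7 and Ttr. Of 10 listed members 2 were not analysed, nor were the lists tied to them. Replicates were numbered in accession order. Whether the numbers in the sample titles pair the arrays is not stated, and the main fit did not pair them. Deviations of equal numbers correlated at 0.241 in LM and -0.175 in MT, which cannot decide this with 2 arrays a group.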

Additional observations from a re-analysis of the deposited data

Results flagged for a closer look

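Sostdc1, the secreted antagonist of bone morphogenetic proteins, had age differences of opposite sign in the genotypes on the probe set that stands for it. Its LM8m arrays (4.62 and 5.87) were both above its LM4m arrays (4.51 and 4.50), and its MT8m arrays (2.35 and 2.11) were both below its MT4m arrays (2.93 and 2.80). The MT8m values were under the lowest array median of 2.44, where the order of values carries little. The interaction was -1.37 log2 units (SE 0.47, n = 2 arrays a group) and did not pass after adjustment over all probe sets (limma, adjusted p = 1.0). It was -0.75 without LM8m replicate 2 and -1.49 without the library labelled MT8m replicate 1. On the second probe set it was -1.35 (SE 0.32), with all MT values there (1.86 to 2.30) under that median too.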

How the results depend on the processing

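Each of the 8 members kept a lower level in MT under every alternative run (88 values, -3.58 to -0.34). Leaving out an array could not turn this direction, since all MT arrays lay below all LM arrays for each member, which follows from their selection. When a gene's probe sets were averaged, 3 moved by more than the residual spread, Ecrg4 to -2.42, Kl to -0.98 and Ace to -0.34. No member's age difference or interaction passed in any fit that was tested, though 17 of 88 age values and 2 of 88 interaction values changed sign. The median interaction of the members was -1.15 to -0.14 when single arrays were left out, the extremes without LM8m replicate 1 and replicate 2.

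Over all probe sets, the averaged genotype difference was passed by 5 to 142 when single arrays were left out, against 27 with all arrays. The count was 11 and 10 without LM4m replicates 1 and 2, 5 and 7 without MT4m replicates 1 and 2, 54 without LM8m replicate 1, 142 (108 of them higher in MT) without the library labelled MT8m replicate 1 and 7 without MT8m replicate 2. A lone array was assumed to vary like the other groups. With both arrays that stand apart left out, an alternative chosen after seeing the data, it was 134. For age, 0 to 1 probe sets passed on average over genotypes, 0 in LM and 0 to 2 in MT, and 0 to 1 passed the interaction. The probe sets that passed did so without MT8m replicate 2. With a trended and robust prior 2 passed for age in MT. The replicate block on the title numbers gave 0 for each of these contrasts, and nothing but a shared number is stated for the arrays it joins. With the MT numbers crossed, also chosen after seeing the data, 3, 3, 2 and 1 passed for age averaged, in LM, in MT and for the interaction.

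Depth cannot be given for these arrays, and 2 arrays a group left standard errors of 0.25 to 0.67 log2 units on the members' interactions.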
